A study of Homo sapiens with 18 samples.

Results

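The 40 genes described here act in G2 and mitosis, the last phases of the cell cycle. They were chosen by gene symbol from what they are known to do, and all 40 stood among the 27130 gene symbols of the count tables. RNA with poly(A) tails was sequenced from the established human embryonic stem cell lines H1 (WA01) and H9 (WA09) and from derived clones in which Cas9 was used to knock out ZNF263, which encodes a transcription factor with zinc fingers. H1 clone 1-10, a homozygous knockout, had 3 libraries, and H1 wild type had 3. H9 clones 9-1 and 9-D, both homozygous knockouts, had 3 libraries each, and H9 wild type had 3. A separate H1 set held 1 library each of the heterozygous clone 1-5, of clone 1-10 and of wild type. Each knockout group is 1 clone, the labels do not give the edited stretch of ZNF263, and they do not say whether replicates were separate cultures, so p-values measure the spread between these libraries, which may be technical. The submitters pose the question of how ZNF263 acts on pluripotency; the comparisons here are of the division programme in the same cells.

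A dividing cell builds up its mitotic proteins late, and much of that build-up is transcriptional. The factor FOXM1, with the MYB-MuvB complex at the cell cycle homology region (CHR) and NF-Y at CCAAT boxes, raises a common set of genes in G2. Among them are the cyclins that activate CDK1, the kinases PLK1 and AURKA, and the motors and kinetochore proteins that move chromosomes. The set also holds activators of the anaphase-promoting complex (APC/C), which ends mitosis by destroying cyclins. Embryonic stem cells divide quickly, with a short G1, and express this set at high levels. In bulk RNA, fewer cells in G2 or mitosis and less of these RNAs per cell cannot be told apart.

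The promoters of these genes were read from RefSeq (GRCh38.p14), as windows of 250 bases before to 50 bases after each annotated start. A window was found for 33 of the 40 genes; none was matched for AURKA, BUB3, TTK, BIRC5, TPX2, UBE2C and FOXM1. The CHR letters TTTGAA, searched on both strands and therefore also as TTCAAA, stood in a window of 23 of the 33 genes (69.7%), and in 18.2% of all 27305 genes with windows. CCAAT, also counted as ATTGG on the other strand, stood in 26 of the 33 genes (78.8%), and in 39.7% of all genes. Both motifs, which do not overlap in letters, were present in 19 of the 33 genes (57.6%), and in 7.26% of all genes. These matches are descriptions of letters in a window and not sites. Of the 7 genes with a window among those that were higher in the H9 knockouts, 4 held TTTGAA and 7 held CCAAT. Of the 3 that were lower in H9, 1 held TTTGAA and 2 held CCAAT, and of the 23 that did not pass the test in H9, 18 held TTTGAA and 17 held CCAAT.

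The 250 bases before the start are printed for 5 genes on which the results turn, 5′ to 3′ on the gene's strand, with capitals marking TTTGAA or TTCAAA and CCAAT or ATTGG. PLK1 (chr16:23678639-23678888, plus strand), CDC20 (chr1:43358731-43358980, plus strand) and CCNA2 (chr4:121823884-121824133, minus strand) were among the genes highest in the H9 knockouts relative to H9 wild type. CDC25B (chr20:3796060-3796309, plus strand, the window with most matches nearest the start of its 4) had the largest decrease in H9. CENPE (chr4:103198344-103198593, minus strand) passed as lower in both lines.
PLK1: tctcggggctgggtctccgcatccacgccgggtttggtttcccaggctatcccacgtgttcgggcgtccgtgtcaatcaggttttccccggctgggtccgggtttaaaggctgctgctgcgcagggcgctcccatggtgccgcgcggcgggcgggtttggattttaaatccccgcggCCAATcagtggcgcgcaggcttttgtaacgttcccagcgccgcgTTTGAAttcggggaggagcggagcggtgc
CDC20: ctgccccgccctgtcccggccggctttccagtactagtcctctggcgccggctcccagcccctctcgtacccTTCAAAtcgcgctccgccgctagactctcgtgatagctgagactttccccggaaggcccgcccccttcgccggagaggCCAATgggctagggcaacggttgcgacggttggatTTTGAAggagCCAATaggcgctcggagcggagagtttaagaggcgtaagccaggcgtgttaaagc
CCNA2: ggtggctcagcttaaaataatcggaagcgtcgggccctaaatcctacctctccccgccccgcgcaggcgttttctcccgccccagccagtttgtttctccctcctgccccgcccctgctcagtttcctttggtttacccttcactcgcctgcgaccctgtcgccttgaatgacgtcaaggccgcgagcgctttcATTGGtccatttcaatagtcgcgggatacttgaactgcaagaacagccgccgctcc
CDC25B: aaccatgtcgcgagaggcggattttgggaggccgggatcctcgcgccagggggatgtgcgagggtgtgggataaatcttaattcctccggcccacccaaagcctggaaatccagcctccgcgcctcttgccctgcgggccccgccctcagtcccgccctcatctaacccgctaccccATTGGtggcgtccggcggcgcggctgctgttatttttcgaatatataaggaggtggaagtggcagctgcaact
CENPE: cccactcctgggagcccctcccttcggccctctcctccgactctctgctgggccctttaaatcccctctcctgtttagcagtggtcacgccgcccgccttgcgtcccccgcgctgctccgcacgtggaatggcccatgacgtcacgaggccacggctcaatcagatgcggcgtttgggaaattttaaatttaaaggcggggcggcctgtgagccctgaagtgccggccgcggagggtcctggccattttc
In PLK1, CCAAT begins at base 178 and TTTGAA at base 222, counted from the first base printed. CDC20 holds both motifs 2 times. CCNA2 and CDC25B hold 1 CCAAT match and no TTTGAA, and CENPE holds neither, which says only that these letters are not in these windows.

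Total counts were 9.66 to 17.7 M for H1 clone 1-10, against 12.3 to 15.3 M for H1 wild type. For H9 they were 13.5 to 21 M (9-1) and 14.3 to 18 M (9-D), against 14.2 to 16 M (wild type), and for the single libraries 13.2 M (1-5) and 13.4 M (1-10), against 11.1 M (wild type). Every one of the 40 genes had over 100 counts in every library, with 131 for CENPA as the lowest. Levels are given as CPM, counts relative to library size, after scaling by the trimmed mean of M-values (TMM) within each count table, so levels are set side by side within a line only. Levels in the single libraries and those of genes with overlapping exons or near-identical copies are CPM of library totals with no TMM scaling. The median coefficient of variation of the 40 genes between replicates was 4.96% in clone 1-10, 4.70% in H1 wild type, 3.54% in clone 9-1, 4.52% in clone 9-D and 5.17% in H9 wild type. ZNF263 itself was at 32.3 to 36.1 CPM in clone 1-10, against 39.6 to 42.0 CPM in H1 wild type, and at 34.4 to 37.4 CPM in clone 9-1 and 35.3 to 37.8 CPM in clone 9-D, against 39.9 to 44.4 CPM in H9 wild type. With the edited stretch not given, this RNA level does not check the loss of the protein. The summed level of 10 pluripotency markers was 10220 to 10640 CPM in clone 1-10, against 9419 to 9865 CPM in H1 wild type, and 9777 to 10066 CPM in both H9 clones, against 8694 to 8992 CPM in H9 wild type. None of these 10 was at 0 in any library. Summed markers of mesendoderm (12 genes) were 12.5 to 23.9 CPM in clone 1-10, against 30.9 to 36.9 CPM in H1 wild type, and of neural cells (12 genes) 809 to 904 CPM in the H9 clones, against 713 to 767 CPM in H9 wild type. Summed markers of fibroblasts (13 genes) were 1577 to 1853 CPM in the H9 clones, against 1489 to 1606 CPM in H9 wild type. Single markers moved both ways: by edgeR, at an adjusted p under 0.05, 1 of 6 tested neural markers was called higher (TUBB3 0.64) and 1 lower (OTX2 -0.42) in H9, and 4 of 10 tested fibroblast markers higher (COL1A1 0.60, FN1 0.59 and VIM 0.21 among them) and 4 lower (PDGFRB -0.79, COL5A1 -0.38, COL1A2 -0.25 and THY1 -0.23). Summed markers of trophoblast and amnion (9 genes) were 9.18 to 10.6 CPM in clone 1-10, against 13.6 to 14.1 CPM in H1 wild type. The genes listed as RNR1 and RNR2, symbols that RefSeq gives to the mitochondrial ribosomal RNAs, took 0.854 to 0.926% of counts in clone 1-10, against 0.663 to 0.808% in H1 wild type. In H9 they took 0.972 to 1.05% in clone 9-1 and 1.18 to 1.22% in clone 9-D, against 1.06 to 1.17% in wild type, below it in one clone and above it in the other. The part of these markers and shares in the results was not tested.

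The summed picture of the 40 genes differed little between libraries. A score for each library was taken as the mean log2 CPM of the 40 genes minus the mean of the wild-type libraries of the same table. It was -0.04, -0.06 and 0.01 in clone 1-10, against 0.01, -0.03 and 0.02 in H1 wild type, so the groups overlapped. In H9 it was 0.05, 0.05 and 0.05 in clone 9-1 and 0.06, 0.06 and 0.01 in clone 9-D, against -0.02, 0.03 and -0.01 in H9 wild type. All 3 libraries of clone 9-1 lay above the wild-type libraries, and 1 library of clone 9-D lay among them. The mean score was 0.05 ± 0.003 in clone 9-1 and 0.04 ± 0.03 in clone 9-D, against 0.00 ± 0.02 in H9 wild type (SD, n = 3 each), and with library totals alone in place of TMM it was 0.01 in clone 9-1 and -0.01 in clone 9-D, so the sign in 9-D depends on the scaling. In clone 1-10 the mean score was -0.03 ± 0.04 (SD, n = 3), and -0.07 with library totals alone.

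**Figure D1:**
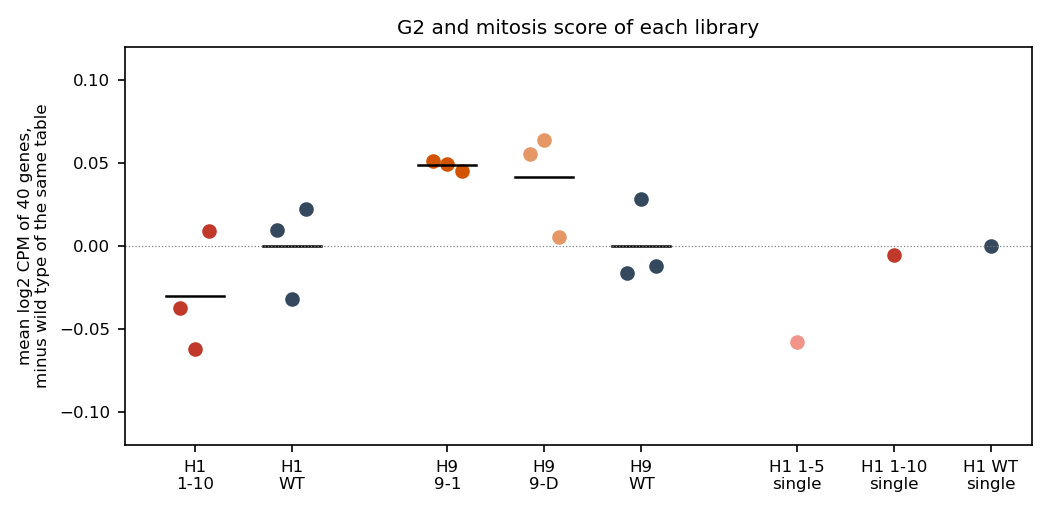
Score of each library over the 40 genes (y axis, mean log2 CPM minus the wild-type mean of the same table), with points for libraries and lines for group means. The libraries span -0.06 to 0.06, and the H1 knockout and wild-type points overlap.

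Genes were called at a threshold of 0.05 on p-values from edgeR's quasi-likelihood test, adjusted by Benjamini-Hochberg (BH) over all genes tested. In clone 1-10 against H1 wild type, 0 of the 40 genes were higher and 2 were lower (CENPE and PRC1), which is 5% of the 40, where 12.3% of all 14897 tested genes were called (5.01% higher and 7.25% lower). DESeq2 also called 0 higher and called 1 lower, and at an unadjusted p under 0.05 edgeR gave 6 of the 40, where 26% of all genes were. The share of all genes called by DESeq2 is not given here. The median log2 fold change was -0.02 over the 40 genes and 0.00 over all genes, with 17 positive and 23 negative. With the 2 H9 clones set as 1 group against their wild type, 10 of the 40 were higher and 3 lower, 32.5%, where 29.7% of all 15411 tested genes were called (14.4% higher and 15.3% lower). That fit treats the libraries of both clones as separate replicates, so its p-values do not measure the spread between clones. The share called in H9 is close to that over all genes, with more of the calls in the higher direction. The median log2 fold change in H9 was 0.04 over the 40 genes and 0.00 over all genes, with 27 positive and 13 negative. Across both lines 14 of the 40 genes were called at least once and 26 were not. The share of all genes called at least once was not counted, so these numbers have no background beside them.

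**Figure D2:**
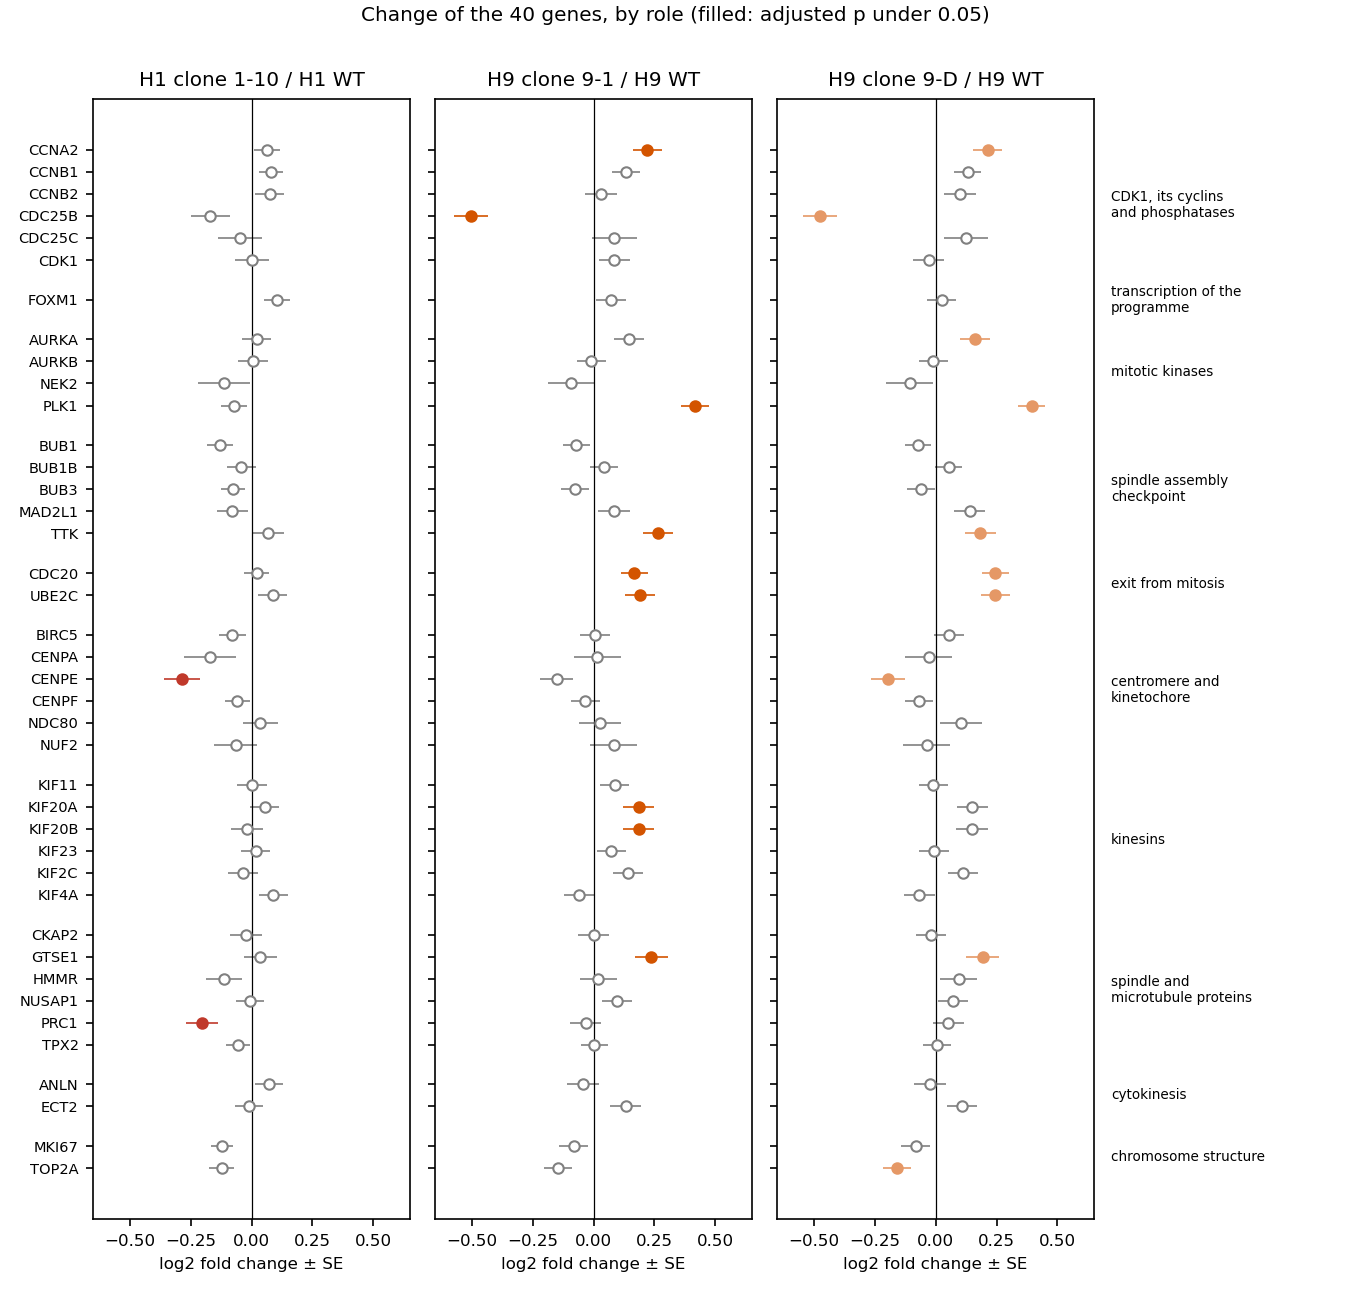
Log2 fold change (x axis, knockout over wild type, ± SE) of each of the 40 genes, grouped by role, in H1 clone 1-10 and in H9 clones 9-1 and 9-D; filled points passed the test. PLK1 (0.42 in 9-1 and 0.39 in 9-D) and CDC25B (-0.50 in 9-1 and -0.48 in 9-D) stand apart in both H9 panels, and most other points lie near 0.

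Among CDK1, its cyclins and its activating phosphatases, cyclins A and B1 were higher in the H9 knockouts and CDC25B was lower, and none of the 6 genes passed in H1. CCNA2, cyclin A2, which partners CDK2 and CDK1 from S phase into early mitosis, had 163, 158 and 148 CPM in clone 9-1 and 161, 153 and 152 CPM in clone 9-D, against 139, 125 and 139 CPM in H9 wild type. Every knockout library lay above every wild-type library, and the log2 fold change was 0.22 (SE 0.051, edgeR BH-adjusted p = 0.00151). In H1 it had 173, 168 and 171 CPM in clone 1-10, against 161, 155 and 174 CPM in wild type, which overlap (log2 fold change 0.06). Exons of CCNA2 overlap those of EXOSC9 on the opposite strand, and use of strand in counting is not given in the sources used here; EXOSC9 was at 50.2 to 65.8 CPM in H9.

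CCNB1, cyclin B1, the partner of CDK1 at entry into mitosis, had 246, 241 and 239.5 CPM in clone 9-1 and 239.9, 247 and 238 CPM in clone 9-D, against 205, 234 and 223 CPM in H9 wild type. The groups did not overlap, though the nearest wild-type library was within a few CPM, and the log2 fold change was 0.13 (SE 0.049, edgeR BH-adjusted p = 0.0407). That call was lost without H9 wild type 1 (adjusted p 0.331), wild type 3 (0.0993), clone 9-1 library 1 (0.0551), 2 (0.0565) or 3 (0.0711) or clone 9-D library 2 (0.0644), all by edgeR with BH adjustment. In H1, CCNB1 had 245, 255 and 261 CPM in clone 1-10, against 237, 245 and 236 CPM in wild type (log2 fold change 0.08, edgeR BH-adjusted p = 0.303).

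CDK1, the kinase that drives entry into mitosis, had 83.0, 84.3 and 81.9 CPM in clone 9-1 and 80.7, 78.1 and 71.7 CPM in clone 9-D, against 76.6, 83.0 and 75.4 CPM in H9 wild type. It had 92.4, 84.8 and 102 CPM in clone 1-10, against 99.8, 82.6 and 94.8 CPM in H1 wild type. Groups overlapped in both lines, with log2 fold changes of 0.03 (H9, edgeR BH-adjusted p = 0.737) and 0.00 (H1, 0.985). CCNB2, a second B-type cyclin, and CDC25C, a phosphatase that activates CDK1, did not pass in either line. Their log2 fold changes were 0.07 and 0.10 in H9 and 0.07 and -0.05 in H1. CDC25C shares exon sequence with FAM53C on the opposite strand. As CPM of library totals, FAM53C was at 103 to 119 in H9, against 19.7 to 23.1 for CDC25C. In H1 it was at 113 to 132, against 22.0 to 25.7 for CDC25C. The part of this overlap in the CDC25C values was not tested.

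CDC25B, the phosphatase that starts activating cyclin-CDK1 complexes at the G2/M boundary, showed the largest decrease of the 40. It had 40.9, 41.0 and 47.0 CPM in clone 9-1 and 42.6, 43.9 and 44.6 CPM in clone 9-D, against 61.0, 60.0 and 61.2 CPM in H9 wild type. The 6 knockout libraries averaged 43.3 ± 2.34 CPM (SD, n = 6 libraries from both clones) and the wild-type libraries 60.8 ± 0.632 CPM (SD, n = 3), with no overlap. The log2 fold change was -0.49 (SE 0.058, 0.713-fold, edgeR BH-adjusted p = 7.98e-08), and the call held with each of the 9 libraries left out. In H1 it had 44.9, 53.4 and 40.1 CPM in clone 1-10, against 51.6, 50 and 55.7 CPM in wild type. One H1 knockout library lay among the wild-type libraries and the others below, and the difference did not pass (log2 fold change -0.17, edgeR BH-adjusted p = 0.176).

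FOXM1, the forkhead factor that activates many of these promoters, had 181, 178 and 185 CPM in clone 9-1 and 175, 168 and 183 CPM in clone 9-D, against 183, 155 and 179 CPM in H9 wild type. It had 176, 193 and 182 CPM in clone 1-10, against 164, 174 and 175 CPM in H1 wild type. The groups overlapped in H9 and did not in H1, where the lowest knockout library was next to the highest wild-type library. Neither difference passed, with log2 fold changes of 0.05 in H9 (edgeR BH-adjusted p = 0.536) and 0.11 in H1 (0.211).

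Of the 4 mitotic kinases, PLK1 and AURKA were higher in the H9 knockouts and none passed in H1. PLK1, polo-like kinase 1, which acts at centrosomes, kinetochores and the cleavage plane, had 252, 242 and 247 CPM in clone 9-1 and 238, 239 and 253 CPM in clone 9-D, against 189, 174 and 192 CPM in H9 wild type. All 6 knockout libraries stood well above all 3 wild-type libraries, with means of 245 ± 6.42 CPM (SD, n = 6 libraries from both clones) and 185 ± 9.78 CPM (SD, n = 3). The log2 fold change was 0.40 (SE 0.049, 1.32-fold, edgeR BH-adjusted p = 1.29e-07), and the call held with each of the 9 libraries left out. In H1, PLK1 had 171, 188 and 179 CPM in clone 1-10, against 179, 192 and 194 CPM in wild type, and the groups overlapped (log2 fold change -0.07, edgeR BH-adjusted p = 0.417). Exons of PLK1 overlap those of ERN2 on the opposite strand, which was at 1.73 to 2.67 CPM in H9. The part of this overlap in the PLK1 result was not tested.

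AURKA, Aurora kinase A of centrosomes and the spindle, had 97.7, 89.6 and 94.2 CPM in clone 9-1 and 92.3, 95.9 and 96.5 CPM in clone 9-D, against 81.7, 88.9 and 83.9 CPM in H9 wild type. The groups were adjacent without overlap, and the log2 fold change was 0.15 (SE 0.052, edgeR BH-adjusted p = 0.0246). The call was lost without H9 wild type 1 (edgeR BH-adjusted p = 0.145) or wild type 3 (0.0998). In H1, AURKA had 100.2, 92.8 and 95.9 CPM in clone 1-10, against 96, 93.0 and 95.7 CPM in wild type (log2 fold change 0.02, edgeR BH-adjusted p = 0.865). AURKB, the kinase of the chromosomal passenger complex, and NEK2, which separates centrosomes, did not pass in either line, with log2 fold changes of -0.01 and -0.10 in H9 and 0.01 and -0.11 in H1.

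Of the 5 genes of the spindle assembly checkpoint, which delays anaphase until chromosomes are attached, TTK alone passed, and in H9. TTK, the kinase that starts checkpoint signalling, had 82.5, 83.5 and 82.7 CPM in clone 9-1 and 80.5, 80.9 and 74.2 CPM in clone 9-D, against 67.1, 71.8 and 68.5 CPM in H9 wild type. The knockout libraries were all above the wild-type libraries, and the log2 fold change was 0.22 (SE 0.054, edgeR BH-adjusted p = 0.00198), which held with each of the 9 libraries left out. In H1, TTK had 90.9, 80.3 and 90.5 CPM in clone 1-10, against 88.4, 78.9 and 82.0 CPM in wild type, which overlap. BUB3, which brings checkpoint kinases to kinetochores, had 153, 154 and 145 CPM in clone 9-1 and 155, 149 and 152 CPM in clone 9-D, against 155, 164 and 157 CPM in H9 wild type (log2 fold change -0.07, edgeR BH-adjusted p = 0.303). It had 205, 202 and 215 CPM in clone 1-10, against 218, 218 and 218 CPM in H1 wild type, lower without overlap but not past the test (log2 fold change -0.08, edgeR BH-adjusted p = 0.354). BUB1, BUB1B and MAD2L1, the other checkpoint genes, lay between -0.07 and 0.11 in H9 and between -0.13 and -0.04 in H1 as log2 fold changes.

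Both genes of the exit from mitosis were higher in the H9 knockouts. CDC20, the activator that directs the APC/C to securin and cyclin B, had 207, 198 and 205 CPM in clone 9-1 and 208, 216 and 220.0 CPM in clone 9-D, against 179, 175 and 189 CPM in H9 wild type. UBE2C, the ubiquitin-conjugating enzyme that starts chains for the APC/C, had 119.7, 115 and 113 CPM in clone 9-1 and 117, 116 and 129 CPM in clone 9-D, against 105, 97.4 and 102 CPM in H9 wild type. In neither gene did the groups overlap. The log2 fold changes were 0.21 (SE 0.049, edgeR BH-adjusted p = 0.00172) for CDC20 and 0.22 (SE 0.052, 0.00167) for UBE2C, and both calls held with each of the 9 libraries left out. In H1, CDC20 had 217, 236 and 226 CPM in clone 1-10, against 224, 222 and 224 CPM in wild type, and UBE2C had 118, 132 and 123 CPM in clone 1-10, against 115, 124 and 113 CPM in wild type. Those groups overlapped, with log2 fold changes of 0.02 and 0.09.

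**Figure D3:**
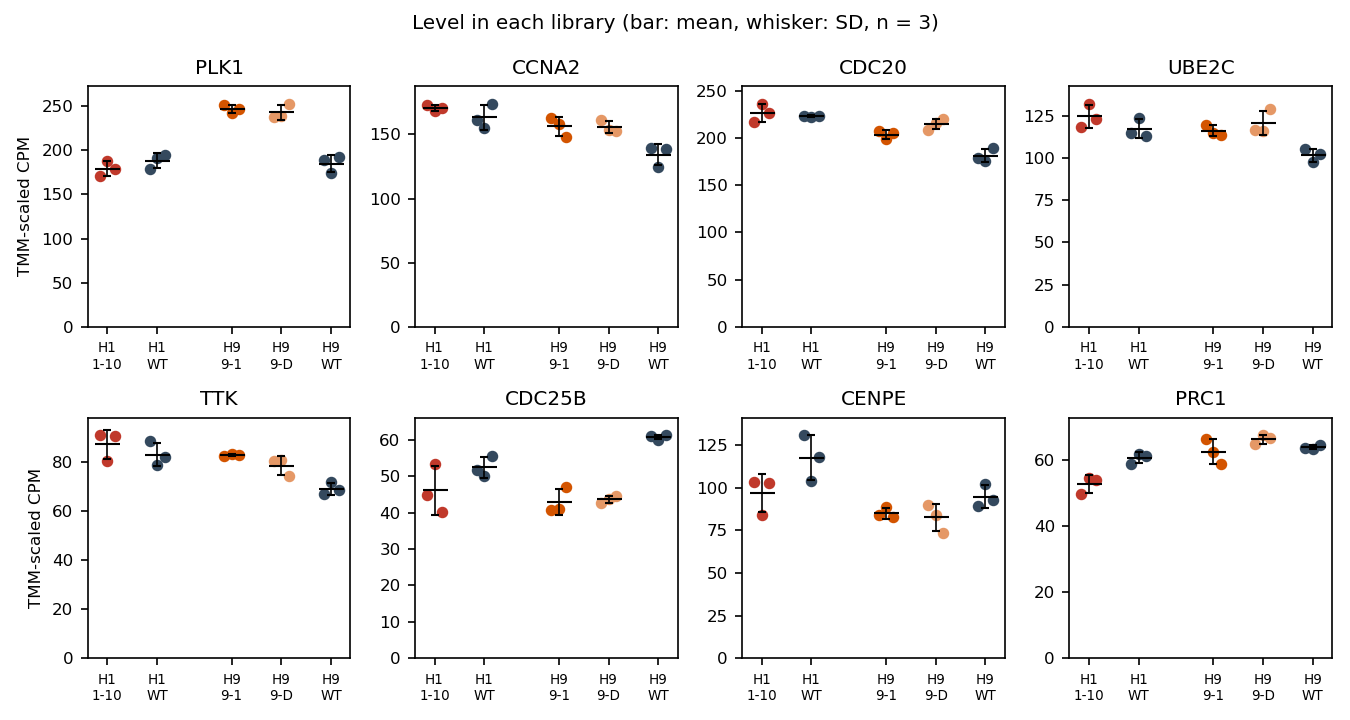
TMM-scaled CPM (y axis, from 0) of 8 of the 40 genes in each library of the replicated groups, with bars for means and whiskers for SD (n = 3). PLK1, CCNA2, CDC20, UBE2C and TTK are higher and CDC25B lower in both H9 clones than in H9 wild type, and CENPE and PRC1 are lower in H1 clone 1-10 than in H1 wild type.

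Of the 6 centromere and kinetochore genes, CENPE was lower in both lines, the one gene of the 40 called in both. The share of all genes called in both lines was not counted. CENPE is the plus-end kinesin that carries chromosomes to the spindle equator. It had 103, 84.0 and 103 CPM in clone 1-10, against 131, 104 and 118 CPM in H1 wild type. The groups lay side by side, with the highest knockout libraries just under the lowest wild-type library, and the log2 fold change was -0.28 (SE 0.074, edgeR BH-adjusted p = 0.00997). It was lost without H1 wild type 1 (edgeR BH-adjusted p = 0.0916) or clone 1-10 library 2 (0.0576). In H9, CENPE had 83.8, 88.8 and 82.6 CPM in clone 9-1 and 89.7, 84.3 and 73.7 CPM in clone 9-D, against 89.0, 102 and 92.7 CPM in wild type. Here 1 library of 9-D lay above the lowest wild-type library, and the log2 fold change was -0.17 (SE 0.059, edgeR BH-adjusted p = 0.0260), lost without H9 wild type 2 (0.198) or clone 9-D library 3 (0.0519). CENPA, the histone H3 variant of centromeres, CENPF, NDC80 and NUF2 of the outer kinetochore, and BIRC5 (survivin) of the passenger complex did not pass. Their log2 fold changes lay between -0.05 and 0.07 in H9 and between -0.17 and 0.04 in H1.

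Of the 6 other kinesins, KIF20A and KIF20B, both of the late mitotic spindle and midbody, were higher in the H9 knockouts, each with a log2 fold change of 0.17. KIF20A had 92.8, 82.6 and 94.7 CPM in clone 9-1 and 87.8, 85.8 and 89.4 CPM in clone 9-D, against 80.9, 74.4 and 81.7 CPM in H9 wild type, with no overlap (SE 0.055, edgeR BH-adjusted p = 0.0210). KIF20B had 122, 124 and 111 CPM in clone 9-1 and 123, 120.0 and 105 CPM in clone 9-D, against 101, 109 and 104 CPM in H9 wild type, with 1 library of 9-D among the wild-type libraries (SE 0.055, edgeR BH-adjusted p = 0.0216). KIF20A was lost without H9 wild type 2 (edgeR BH-adjusted p = 0.145) or clone 9-1 library 3 (0.0637), and KIF20B without wild type 1 (0.126), wild type 3 (0.0882) or clone 9-1 library 2 (0.0525). KIF20A shares exon sequence with CDC23 on the opposite strand, which was at 44.0 to 51.4 CPM in H9. KIF11, which pushes spindle poles apart, KIF23 of the central spindle, KIF2C, which takes microtubules apart at centromeres, and KIF4A of chromosome arms did not pass, with log2 fold changes between -0.06 and 0.13 in H9. In H1 all 6 lay between -0.03 and 0.09 and none passed. Reads of KIF4A can be shared with its near-identical copy KIF4B, which was at 0 to 0.299 CPM over all libraries.

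Among 6 spindle and microtubule proteins, GTSE1 was higher in the H9 knockouts and PRC1 lower in the H1 knockout. GTSE1, a microtubule-binding protein made in G2, had 79.0, 80.1 and 80.9 CPM in clone 9-1 and 80.4, 69.6 and 82.3 CPM in clone 9-D, against 72.8, 63.0 and 67.6 CPM in H9 wild type. One library of 9-D lay among the wild-type libraries, and the log2 fold change was 0.22 (SE 0.059, edgeR BH-adjusted p = 0.00603), lost without H9 wild type 2 (0.0687). In H1 it had 69.8, 84.7 and 75.5 CPM in clone 1-10, against 69.3, 80.4 and 74.5 CPM in wild type, which overlap. PRC1, which bundles antiparallel microtubules between separating chromosomes, had 49.7, 54.8 and 54.1 CPM in clone 1-10, against 58.8, 62.1 and 61.4 CPM in H1 wild type. The groups did not overlap, and the log2 fold change was -0.20 (SE 0.067, edgeR BH-adjusted p = 0.0407). That call was the less firm of the 2 in H1. It was lost without H1 wild type 1 (edgeR BH-adjusted p = 0.0611), 2 (0.104) or 3 (0.140) and without clone 1-10 library 1 (0.221) or 3 (0.0694), and by DESeq2 (0.0924) and with no filter on low counts (0.0558). PRC1 in H9 had 66.4, 62.5 and 59.0 CPM in clone 9-1 and 64.9, 67.6 and 66.8 CPM in clone 9-D, against 63.8, 63.5 and 64.8 CPM in wild type, which overlap. Its exons overlap PRC1-AS1 on the opposite strand, at 0 to 0.280 CPM in H9 and 0 to 0.261 CPM in H1. TPX2, which activates AURKA on the spindle, HMMR, NUSAP1 and CKAP2 lay between -0.01 and 0.08 in H9 and between -0.11 and -0.01 in H1 as log2 fold changes, and none passed.

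The 2 genes of cytokinesis did not pass: ANLN (anillin) of the contractile ring had log2 fold changes of -0.03 in H9 and 0.07 in H1, and ECT2, the activator of RHOA at the cleavage plane, 0.12 in H9 and -0.01 in H1. Of the 2 genes of chromosome structure, TOP2A, the topoisomerase that untangles sister chromatids, had 379, 373 and 362 CPM in clone 9-1 and 381, 385 and 338 CPM in clone 9-D, against 409, 429 and 393 CPM in H9 wild type. The knockout libraries lay below the wild-type libraries with no overlap, and the log2 fold change was -0.15 (SE 0.049, edgeR BH-adjusted p = 0.0197), lost without H9 wild type 2 (0.108). In H1 it had 525, 478 and 563 CPM in clone 1-10, against 582, 527 and 595 CPM in wild type. Those groups overlapped and the difference did not pass (log2 fold change -0.12, edgeR BH-adjusted p = 0.130), though it passed without H1 wild type 2 (0.0276) or clone 1-10 library 3 (0.0457).

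MKI67, the protein that coats mitotic chromosomes and the usual marker of proliferating cells, had 447, 419 and 424 CPM in clone 9-1 and 454, 431 and 404 CPM in clone 9-D, against 482, 411 and 471 CPM in H9 wild type. It had 344, 348 and 355 CPM in clone 1-10, against 387, 372 and 380.0 CPM in H1 wild type. The groups overlapped in H9; in H1 every knockout library was below every wild-type library. Neither difference passed, with log2 fold changes of -0.08 in H9 (edgeR BH-adjusted p = 0.249) and -0.12 in H1 (0.0840). In H9 it passed as lower without wild type 2 (log2 fold change -0.15, edgeR BH-adjusted p = 0.0328). In H1 it passed as lower without both libraries numbered 2 (-0.14, edgeR BH-adjusted p = 0.00772), as did TOP2A (-0.12, 0.0174), in a fit added after seeing the data. With replicate number as a block, an alternative fit, MKI67 (-0.12, edgeR BH-adjusted p = 0.0107) and TOP2A (-0.12, 0.00461) also passed as lower in H1. Same-numbered H1 libraries varied together weakly, so the numbers were not taken to pair them. Over the 40 genes in H1, 3 were higher and 6 lower with no overlap between groups, 7.5% and 15% of the 40, where 14.3% and 15.1% of all tested genes were. In H9, 9 were higher and 3 lower with no overlap, where 12.8% and 13.6% of all tested genes were.

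The size of a change in the genes that did not pass is bounded by the spread between these libraries. The log2 fold changes had a median SE of 0.060 in H1 and 0.054 in H9. For the 38 genes not called in H1, intervals of ± 1.96 SE lay within -0.38 and 0.21. For the 27 not called in H9 they lay within -0.26 and 0.26. The factor 1.96 is that of the normal distribution and makes them narrower than 95% intervals of the F test. MAD2L1 in H9 had an interval of 0.002 to 0.222, without 0, at an unadjusted edgeR p of 0.0543. A gene not called may thus still have changed by an amount within its interval, or somewhat past it. Some genes with smaller changes were called, CCNB1 (0.13) in H9 and PRC1 (-0.20) in H1 among them. The authors' deposited tables called 0 higher and 1 lower of the 40 in H1, and 10 higher and 3 lower in H9, the same 13 genes. The share of all genes that the authors called is not given here.

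Taken singly, the H9 clones gave much the same values, with the same wild-type libraries in both comparisons. In clone 9-1, 8 of the 40 genes were higher and 1 lower (22.5%), where 26.3% of all genes were called (12.8% higher and 13.5% lower). In clone 9-D, 7 were higher and 3 lower (25%), where 23.5% of all genes were called (11.5% higher and 12% lower). PLK1 had a log2 fold change of 0.42 (SE 0.057) in 9-1 and 0.39 (SE 0.057) in 9-D, and CDC25B -0.50 (SE 0.069) in 9-1 and -0.48 (SE 0.069) in 9-D. CCNA2, CDC20, UBE2C, TTK and GTSE1 also passed as higher in each clone, at 0.22 and 0.21, 0.17 and 0.24, 0.19 and 0.25, 0.26 and 0.18, and 0.24 and 0.19 in 9-1 and 9-D. KIF20A and KIF20B passed in 9-1 (0.18 and 0.19) and missed in 9-D (0.15 and 0.15), and AURKA, TOP2A and CENPE passed in 9-D (0.16, -0.16 and -0.20) and missed in 9-1 (0.14, -0.14 and -0.15). Set against each other, the clones did not differ past the test in any of the 40. In 9-D against 9-1 edgeR called 0 of the 40 genes and DESeq2 called 0, where edgeR called 0.305% of all genes, and 0 of the 40 had an unadjusted p under 0.05, where 6.61% of all genes did. The log2 fold changes of 9-D over 9-1 ran from -0.12 to 0.08, and their intervals of ± 1.96 SE lay within -0.30 and 0.24.

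With single libraries left out, PLK1, CDC25B and TTK kept their call in 9-1 in all 9 fits, and PLK1, CDC25B, CDC20 and UBE2C in 9-D. The other calls in 9-1 were lost in at least 1 fit, here with edgeR BH-adjusted p without the libraries named. CCNA2 (0.0505) and GTSE1 (0.0642) were lost without H9 wild type 2, and UBE2C without wild type 2 (0.0809) or 9-1 library 1 (0.0698). CDC20 was lost without wild type 1 or 2 or 9-1 library 1 or 3 (0.0718 to 0.0908), KIF20A without the same 4 (0.0507 to 0.155), and KIF20B without wild type 1 or 3 or 9-1 library 1 or 2 (0.0856 to 0.142). In 9-D, CCNA2 was lost without wild type 2 (edgeR BH-adjusted p = 0.0584), TTK without wild type 1 or 3 or 9-D library 1 or 2 (0.0775 to 0.117), and GTSE1 without wild type 2 or 3 or 9-D library 1 or 3 (0.0930 to 0.174). AURKA was lost without wild type 1 or 3, 9-1 library 2 or 3, or 9-D library 2 or 3 (edgeR BH-adjusted p 0.0539 to 0.189), and also with no filter on low counts (0.0580). TOP2A in 9-D was lost without wild type 1 or 2, 9-1 library 1 or 3, or 9-D library 3 (0.0623 to 0.280). CENPE in 9-D was lost without wild type 2 or 3, 9-1 library 1 or 3, or 9-D library 2 or 3 (edgeR BH-adjusted p 0.0513 to 0.260), and by DESeq2 (0.0618).

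The knockout effect was compared directly between the lines, as the log2 fold change in H9 minus that in H1, in 1 edgeR model of 15 libraries. H1 has 1 replicated knockout clone and H9 has 2, so a difference between lines cannot be told apart from a difference between clones. The p-values rest on the spread between libraries of these clones. PLK1 differed by 0.48 (SE 0.072, edgeR BH-adjusted p = 8.52e-06), with every H9 knockout library above H9 wild type, while the H1 groups overlapped. CDC25B differed by -0.32 (SE 0.10, edgeR BH-adjusted p = 0.0392), with log2 fold changes of -0.49 in H9, which passed, and -0.17 in H1, which did not. These 2 of 40 are 5%, where 8.73% of all genes differed (4.96% with a positive and 3.77% with a negative difference). The PLK1 difference passed with each of the 15 libraries left out. That of CDC25B was lost without any of 10 of them, namely the 3 H9 wild-type libraries, H1 wild type 1 and 2, clone 1-10 libraries 1 and 2, clone 9-1 libraries 1 and 2 and clone 9-D library 1, with edgeR BH-adjusted p up to 0.251. For the other 38 genes, those called in H9 included, a difference between the lines did not pass. The median difference over the 40 genes was 0.09, with 33 positive and 7 negative, and over all genes 0.00.

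The single H1 libraries, which have no replicates and therefore no test, add the heterozygous clone 1-5. Log2 ratios of CPM to the single wild-type library are given with exact 95% intervals that cover counting error only. CENPE was at 64.0 CPM in clone 1-5 and 72.2 CPM in clone 1-10, against 81.6 CPM in wild type, with log2 ratios of -0.35 (-0.49 to -0.21) in 1-5 and -0.18 (-0.31 to -0.04) in 1-10. HMMR, a spindle protein, was at 48.1 CPM in clone 1-5 and 54.6 CPM in clone 1-10, against 62.7 CPM in wild type, with log2 ratios of -0.38 (-0.54 to -0.23) in 1-5 and -0.20 (-0.35 to -0.05) in 1-10. These were the 2 of the 40 genes (5%) with a log2 ratio past 0.32 in size in clone 1-5, both lower, where 17.5% of all 14006 genes above a mean of 1 CPM were past it (6.68% higher and 10.8% lower). In clone 1-10, 0 of the 40 were past it, where 17.1% of all genes were (4.95% higher and 12.1% lower). PLK1 was near wild type in each (202 CPM in 1-5 and 196 CPM in 1-10, against 200.04 CPM), as in the replicated H1 libraries. CDC25B was lower in each, at -0.16 (-0.31 to -0.003) in 1-5 and -0.21 (-0.36 to -0.05) in 1-10. TOP2A, at -0.319 (-0.37 to -0.26) in 1-5 and -0.12 (-0.17 to -0.07) in 1-10, fell just short of that size in 1-5. Intervals without 0 were lower for 15 of the 40 genes and higher for 2 in 1-5, and lower for 6 and higher for 4 in 1-10. That share was not counted over all genes. The median log2 ratio of the 40 genes was -0.08 in clone 1-5, with 30 of 40 negative, and -0.04 in clone 1-10, with 26 negative; over all genes it was -0.03 in 1-5 and -0.02 in 1-10.

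**Figure D4:**
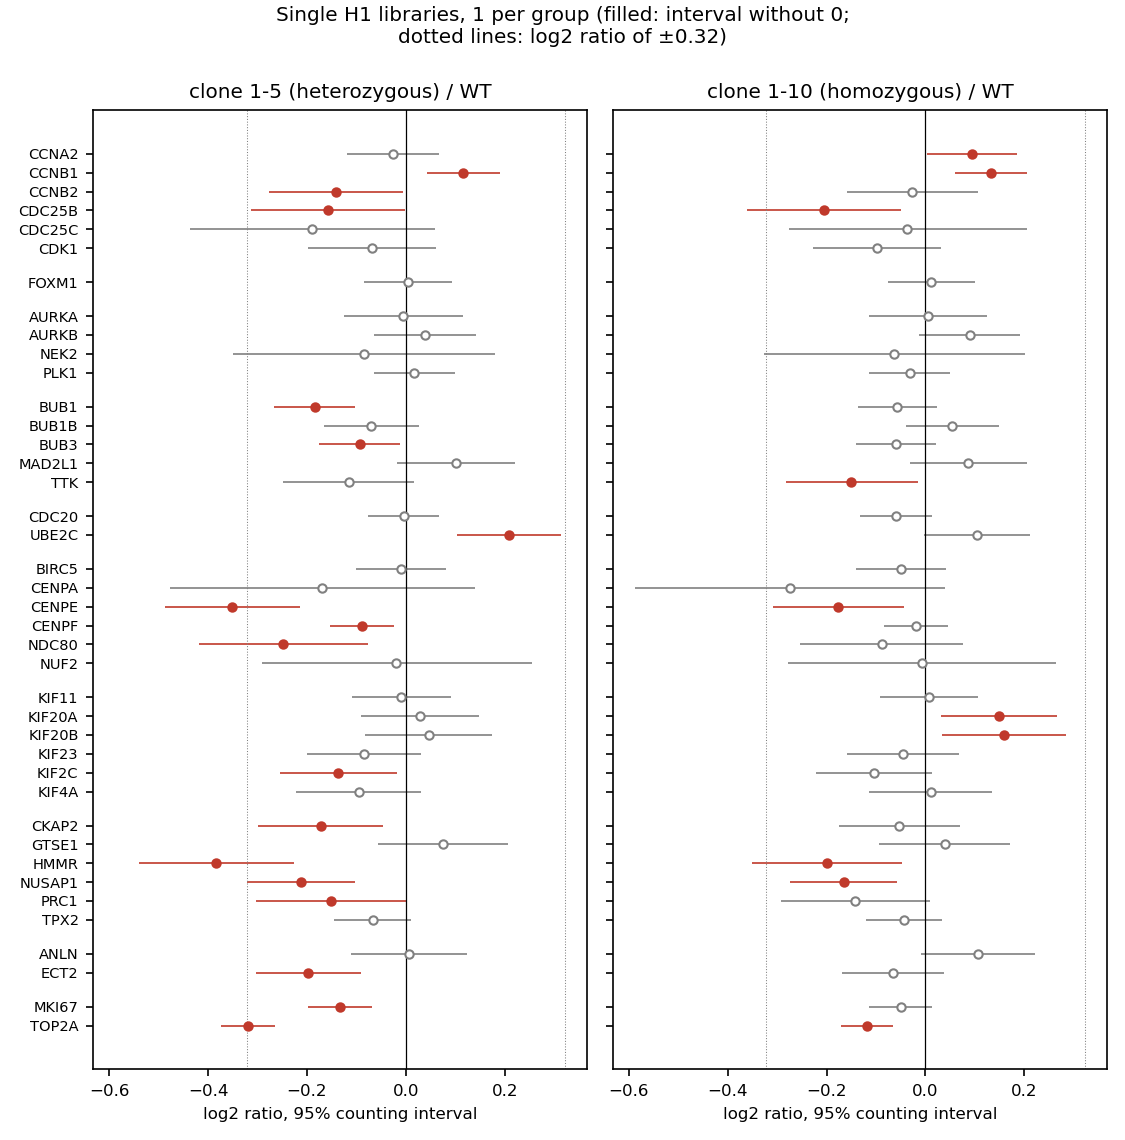
Log2 ratio (x axis) of each of the 40 genes in the single libraries of clones 1-5 and 1-10 over the single H1 wild-type library, with exact 95% counting intervals and dotted lines at a log2 ratio of 0.32 in either direction. In clone 1-5, CENPE (-0.35) and HMMR (-0.38) lie past the lower line; in clone 1-10 none does.

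Around the 40 genes, 5 further lists of the cell cycle were counted with the same test. Of 57 other genes of G2 and mitosis, 0 were higher and 3 lower in clone 1-10 (5.26%, where 12.3% of all genes were called), namely PIF1, DEPDC1 and NCAPD2 (-0.27, -0.25 and -0.15 as log2 fold changes). In H9, 5 were higher and 3 lower (14%, where 29.7% of all genes were called), led by SKA3, an outer kinetochore protein (0.44), HJURP, the chaperone of CENPA (0.25), and DEPDC1 (-0.23). In H1, DEPDC1 was lost without wild type 1 (edgeR BH-adjusted p = 0.164) or 3 (0.186) or clone 1-10 library 1 (0.0678) or 2 (0.188) and by DESeq2 (0.106). NCAPD2 was lost without wild type 2 (edgeR BH-adjusted p = 0.150) or 3 (0.199) or clone 1-10 library 1 (0.154) or 3 (0.122) and with no filter on low counts (0.0598). In H9, DEPDC1 was lost without wild type 2 (edgeR BH-adjusted p = 0.0524) and UBE2S, an enzyme of the APC/C, without wild type 3 (0.0522). SKA3 was at 78.1, 82.5 and 82.4 CPM in clone 9-1 and 77.7, 73.9 and 68.9 CPM in clone 9-D, against 56.8, 56.9 and 57.7 CPM in H9 wild type, and the knockout libraries were all higher. Its effect differed between the lines (H9 minus H1 0.40, edgeR BH-adjusted p = 0.00197), with each of the 15 libraries left out as well. Of 43 genes of G1/S and replication, 5 were higher and 0 lower in clone 1-10 (11.6%, where 12.3% of all genes were called), and 6 were higher and 6 lower in H9 (27.9%, where 29.7% of all genes were). RRM2, a subunit of ribonucleotide reductase, was higher in both (0.22 in H1 and 0.24 in H9). Of 17 APC/C genes, 0 passed in H1 by edgeR, where 12.3% of all genes did (1 at an unadjusted p under 0.05, where 26% of all genes were). In H9, 2 of the 17 were higher (CDC16 0.29 and UBE2S 0.19), 11.8%, where 29.7% of all genes were called.

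Of 22 genes of transcriptional control of the cell cycle, 0 passed in H1 by edgeR, where 12.3% of all genes did (5 at an unadjusted p under 0.05, where 26% of all genes were). In H9, 2 of the 22 were higher and 2 lower (18.2%, where 29.7% of all genes were called). MYBL2, the B-MYB subunit of the activating MuvB complex, was at 271, 264 and 282 CPM in clone 9-1 and 275, 276 and 299 CPM in clone 9-D, against 239, 247 and 259.6 CPM in H9 wild type. All knockout libraries were above all wild-type libraries (log2 fold change 0.16, SE 0.050, edgeR BH-adjusted p = 0.0138), though the call was lost without H9 wild type 1 (0.106). In H1, MYBL2 was at 264, 292 and 267 CPM in clone 1-10, against 266, 281 and 276 CPM in wild type (0.00, edgeR BH-adjusted p = 0.984), and the difference between the lines did not pass (0.16, 0.196).

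Among brakes on cyclin-dependent kinases and G1 regulators, 6 of 20 tested genes were higher and 0 lower in H9 (30%, where 29.7% of all genes were called), and 2 were higher and 2 lower of 19 tested in H1 (21.1%, where 12.3% of all genes were). CDKN1A, the p21 inhibitor of these kinases, moved in opposite directions in H1 clone 1-10 and in the H9 clones. It was at 10.6, 12.2 and 10.1 CPM in clone 1-10, against 15.3, 15.2 and 15.5 CPM in H1 wild type, lower in every knockout library (log2 fold change -0.47, SE 0.11, edgeR BH-adjusted p = 0.00504). It was at 16.2, 15.5 and 15.6 CPM in clone 9-1 and 14.3, 15.5 and 17.8 CPM in clone 9-D, against 12, 11.7 and 11.1 CPM in H9 wild type, higher in every knockout library (0.45, SE 0.091, edgeR BH-adjusted p = 0.000300). The effects differed by 0.91 (SE 0.14, H9 minus H1, edgeR BH-adjusted p = 1.00e-05), with each of the 15 libraries left out as well. CCND1, cyclin D1, was higher in H9, at 147, 147 and 155 CPM in clone 9-1 and 146, 145 and 148 CPM in clone 9-D, against 123, 127 and 121 CPM in wild type (0.26, SE 0.048, edgeR BH-adjusted p = 9.81e-05). In H1 it was at 114, 131 and 119 CPM in clone 1-10, against 133, 125 and 125 CPM in wild type, and did not pass (-0.07), though it passed as lower without both libraries numbered 2 (-0.15, edgeR BH-adjusted p = 0.0388), with a difference between lines of 0.33 (SE 0.074, edgeR BH-adjusted p = 0.00236). CDK6, a partner of D-type cyclins, was higher in both lines (0.41 in H1 and 0.41 in H9).

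**Figure D5:**
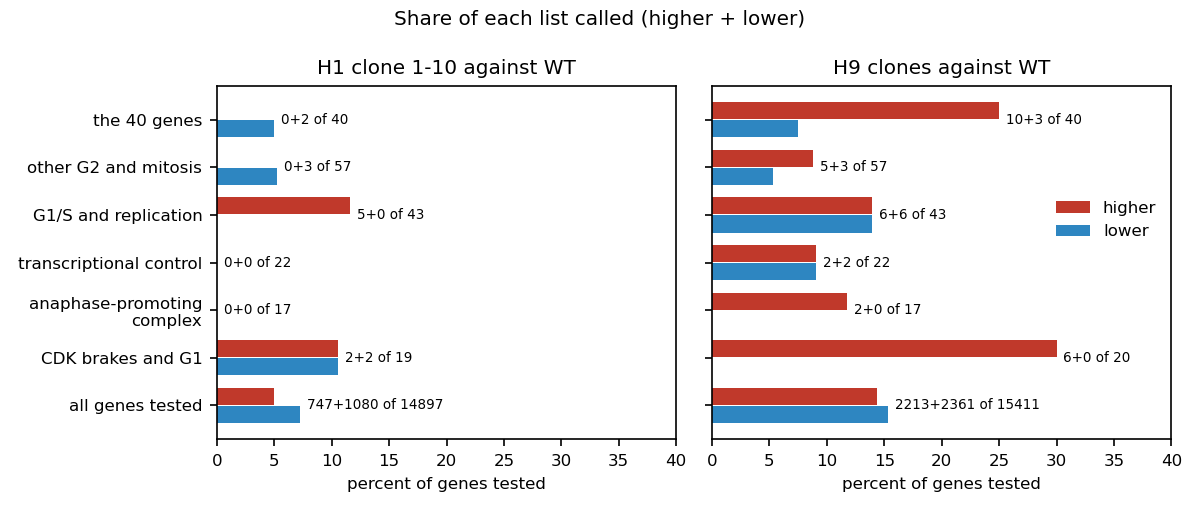
Percent of tested genes (x axis) called higher or lower in each list, in H1 clone 1-10 against wild type and in both H9 clones against wild type; the text beside each pair gives the number higher, lower and tested. In H9, 10 of the 40 genes were higher and 3 lower, and of the CDK brakes and G1 regulators 6 of 20 were higher and 0 lower; over all genes 14.4% were higher and 15.3% lower.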

How the data were processed

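Polyadenylated RNA of 18 libraries was measured by sequencing. The deposited tables hold read counts per gene symbol, and the authors, per the submitters' processing notes, used STAR, hg19, featureCounts and DESeq2; versions and use of strand are not given in the sources used here. In the comparison tables the authors give, per the file headers, a log2 fold change and a p-value adjusted by DESeq2.

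Counts were tested with edgeR 4.0.16 (R 4.3.3): TMM scaling, filterByExpr, the quasi-likelihood F test and Benjamini-Hochberg adjustment over all genes, called at 0.05. SE was the absolute log2 fold change over the square root of F. The H9 clones were fitted together against wild type, and singly in a model of 3 groups. Scores used a prior count of 2. DESeq2 1.42.0, RLE scaling, no filter, a replicate block and leaving out each library were alternatives. Chi-square per gene between replicates was 1.83 to 5.94 over 15 pairs, so no library repeats another of its own group. Libraries of different groups and the single libraries were not compared in this way. The H1 test and the joint H9 test were also run on simulated counts, with independent noise in each library and no difference between clones. The outcome is not given here, and nothing is concluded from it.

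Members, lists and tests were chosen with earlier results of these data known. Values per library are given for CCNB1, CDK1, FOXM1, PLK1, AURKA, TOP2A, MKI67 and BUB3 and for the 6 called genes of lowest adjusted p in each comparison; of each further list at most 3 called genes are named, and CDKN1A, CCND1 and MYBL2 always. One further gene that the rule names is not reported here. KIF20A and KIF20B were given per library after their values were seen. Promoters come from a build (GRCh38.p14) other than the one used for counting and were joined by symbol; exon overlaps are from GENCODE 29.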

Additional observations from a re-analysis of the deposited data

Results flagged for a closer look

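The knockout effect differed between the lines (H9 minus H1, log2 scale) for PLK1 (0.48, edgeR BH-adjusted p = 8.52e-06), CDC25B (-0.32, 0.0392), CDKN1A (0.91, 1.00e-05), CCND1 (0.33, 0.00236) and SKA3 (0.40, 0.00197). A difference between lines cannot be told apart here from a difference between clones. That of CDC25B was lost in most fits with a library left out (edgeR BH-adjusted p up to 0.251). Its log2 fold change in H1 was also negative (-0.17) but did not pass. PLK1 was higher in 6 of 6 H9 knockout libraries than in every H9 wild-type library, and CDC25B was lower in 6 of 6.

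Over the 6 libraries of both H9 clones, 3 of the 40 genes had 1 library far from the others by Dixon's criterion, which chance alone meets in about 1 in 20 groups. TTK was at 74.2 CPM in clone 9-D library 3, with the nearest at 80.5 CPM. CENPF was at 333 CPM in the same library, with the nearest at 373 CPM. GTSE1 was at 69.6 CPM in clone 9-D library 2, with the nearest at 79.0 CPM. The score of clone 9-D library 3, 0.01, was also the lowest of the 6.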

How the results depend on the processing

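RLE scaling changed no call count by over 1.5 times. The count of the 40 genes lower in H1 was 2, and 1 with DESeq2, 1 with no filter, 5 with the replicate block and 5 without both libraries numbered 2 (added after seeing the data). The shares of all genes called in these fits, and in those below, are not given here. These counts are therefore not set against a change over all genes. Samples with the same number varied together weakly or not at all (correlation 0.04 to 0.12 in H1 and -0.03 to 0.06 in H9, best with their own number in 4 of 6 and 8 of 9 libraries), which falls short of over 0.1 in every pair, so the numbers were not taken to pair them; the replicate block gave 11 higher and 3 lower in H9, 2 lower in clone 9-1, and in H1 also called TOP2A and MKI67. With each library left out, the counts ranged 0 to 0 higher and 0 to 2 lower in H1, 7 to 11 and 2 to 3 in H9, 4 to 8 and 1 to 2 in clone 9-1, 4 to 7 and 1 to 3 in clone 9-D, 0 to 0 and 0 to 0 in 9-D against 9-1, and 1 to 1 and 0 to 1 for the difference between lines. Small log2 fold changes turned sign: CDK1 in H1 was -0.073 without H1 wild type 2, -0.057 without clone 1-10 library 3 and -0.013 without both libraries numbered 2 (-0.073 to 0.068 with each left out); AURKA in H1 was -0.0089 without clone 1-10 library 1 (to 0.052); FOXM1 in H9 was -0.024 without H9 wild type 2 (to 0.087); MYBL2 in H1 was -0.018 without H1 wild type 1, -0.044 without clone 1-10 library 2 and -0.029 without both numbered 2 (to 0.031). The cause was not tested. Depth kept none of the 40 genes out of the tests, and replicates differed by more than counting error (chi-square per gene 1.83 to 5.94).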
